A study of Danio rerio with 5 samples.

Results

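Messenger RNA was compared between zebrafish embryos that received miR-430 as a hairpin cut by Argonaute 2 (Ago2) and embryos that received it as a ready-made duplex. The comparison takes 2 of the 5 libraries of the series, chosen by their labels, and the 14097 of 26158 listed genes that averaged at least 1 CPM (read counts scaled to a common library size) over all 5 libraries. Both libraries came from embryos lacking maternal and zygotic Dicer (MZdicer, hu896/hu896), injected at the 1-cell stage with 1 nl of a 25 µM stock and collected at the shield stage of gastrulation, 6 h after fertilization. The hairpin compared here has no phosphorothioate bonds and can be trimmed after cutting. The other 3 libraries were uninjected wild type (TU/AB/TL/TLF), uninjected MZdicer, and MZdicer given the same dose of the hairpin with 3 phosphorothioate bonds (3xPS hairpin). Each library pooled 15 whole embryos, there was 1 library per group, and a control injection is not among the 5 libraries.

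MicroRNAs are usually cut from a hairpin precursor by Dicer into a short duplex, of which Argonaute keeps a single strand as its guide. A few precursors have a stem too short for Dicer. Ago2 cuts these itself, and the cut product is then shortened at its 3′ end, a step the series title assigns to PARN. miR-430 is made in large amounts when the zebrafish zygotic genome is switched on. It pairs with the 3′ untranslated regions of many maternal messenger RNAs and speeds their translational repression, deadenylation and decay. MZdicer embryos make no mature miR-430 of their own, so the comparison asks how far a precursor that needs Ago2 acts like a duplex that needs no cutting.

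The duplex library held 25317886 counts and the hairpin library 24123349. The 3 other libraries held 14867084 to 26300080. With 1 library per side, replicate spread is unknown and p-values are not given. Square brackets hold the 95% exact conditional binomial interval of a ratio, which covers counting error only. Gene symbols are given as the reference table spells them, which is often the spelling of the human gene. DICER1 (ENSDARG00000001129), the gene mutated in these fish, was at 22.5 CPM with the duplex and 20.1 CPM with the hairpin, against 36.5 CPM in wild type, and its counts do not show whether a transcript carries the mutation. The injected RNAs themselves were not measured. Markers of the shield embryo were present in both libraries, with the enveloping layer keratin krt4 at 2485 CPM with the duplex and 2250 CPM with the hairpin, and the germ cell helicase DDX4 at 294 and 282 CPM. The heart genes MYL7 and nppa had 0 counts in all 5 libraries. Not every marker of absent tissues was silent. The neural gene ELAVL3 had 70 counts with the duplex and 57 with the hairpin, and the ovary gene zp3b 770 and 973. GFAP had 5 and 3.

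Most transcripts were at similar levels after the hairpin and after the duplex, and those that differed were mostly higher with the hairpin. A gene was called when it differed at least 2-fold on the log2(CPM + 0.5) scale and its counting interval excluded equality. By this rule 316 genes (2.24% of those measured) were higher with the hairpin and 113 (0.802%) were lower. The median log2 ratio of hairpin to duplex over all 14097 genes was 0.01, with quartiles of -0.20 and 0.23. The higher genes differed by a median of 2.81-fold and the lower genes by 2.52-fold, and 3 lower genes exceeded 8-fold. These 3 rest on 1, 2 and 3 counts with the hairpin, against 39, 35 and 47 with the duplex, so their folds are uncertain. RRM2 was the only higher gene to exceed 8-fold, and its ratio depends on the count column used. No called gene had 0 counts in either library. In whole embryos, fewer cells of a type and less RNA per cell cannot be told apart. The libraries were made from poly(A)+ RNA, so a loss of poly(A) tail and a loss of transcript cannot be told apart either.

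**Figure D1:**
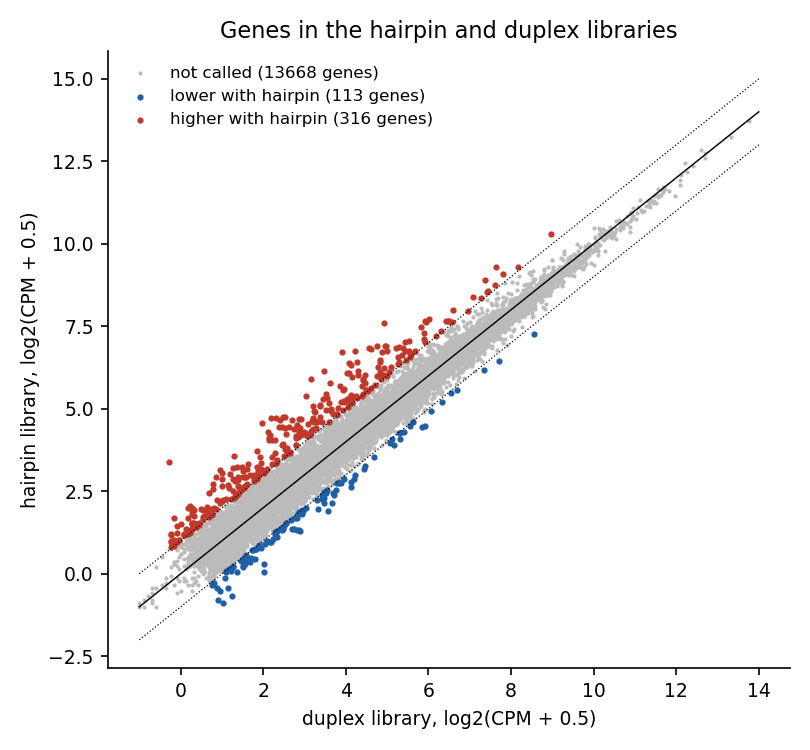
Each point is 1 of 14097 genes, placed by its log2(CPM + 0.5) in the duplex library (x axis) and in the hairpin library (y axis), 1 library each. The solid line marks equality and the dotted lines a 2-fold difference. The 316 genes called higher with the hairpin (red) outnumber the 113 called lower (blue).

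The genes that stayed higher with the hairpin were largely those that are high when Dicer is absent. That class was defined from the uninjected MZdicer and wild-type libraries alone, neither of which enters the comparison. Of the 2301 genes called higher in uninjected MZdicer than in wild type, by 2-fold or more (MZdicer-high genes, 16.3% of genes measured), 269 were called higher with the hairpin and 7 lower. This was 11.7% of the class, against the 2.24% of all genes. Their median log2 ratio of hairpin to duplex was 0.36, with quartiles of 0.09 and 0.70, and 1872 of them (81.4%) were above a ratio of 1.

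Genes that are low without Dicer lay on the other side. Of the 819 genes called lower in MZdicer than in wild type (MZdicer-low genes, 5.81%), 56 (6.84%) were called lower with the hairpin than with the duplex and 5 (0.611%) were called higher, against 0.802% and 2.24% of all genes. Their median was -0.27, with quartiles of -0.56 and -0.01, and 193 (23.6%) were above a ratio of 1. The 10977 genes in neither class had a median of -0.02, with 42 called higher and 50 lower. Seen from the calls, 269 of the 316 higher genes (85.1%) were MZdicer-high, and 56 of the 113 lower genes (49.6%) were MZdicer-low.

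**Figure D2:**
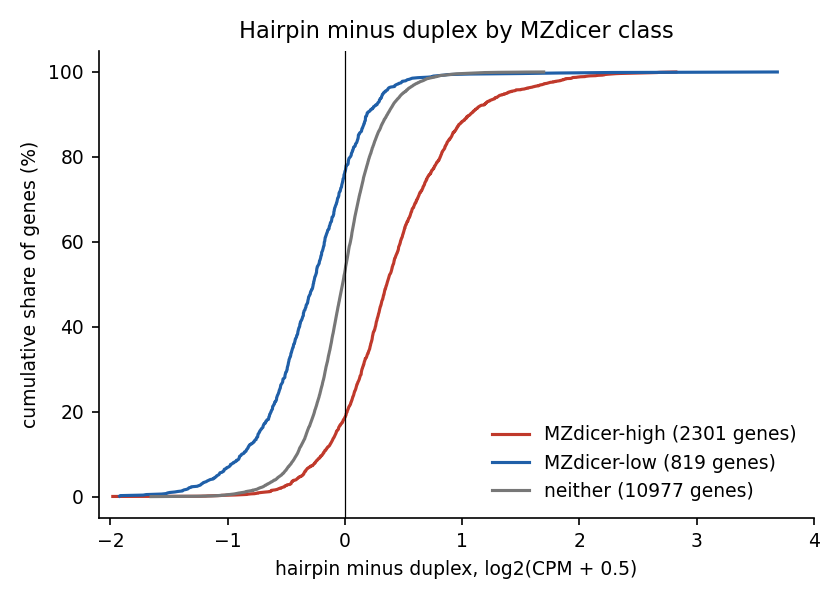
Cumulative share of genes (y axis, percent) by log2 ratio of hairpin to duplex (x axis, difference of log2(CPM + 0.5)), for the 2301 MZdicer-high, 819 MZdicer-low and 10977 remaining genes. The MZdicer-high curve lies to the right of the others, with a median of 0.36, and the MZdicer-low curve to the left, with a median of -0.27.

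The difference between hairpin and duplex grew with the difference between the uninjected MZdicer and wild-type libraries. Among 1955 genes whose MZdicer level was above wild type by 0.5 to 1 on the log2 scale, the median log2 ratio of hairpin to duplex was 0.12. It was 0.28 for the 1655 genes above by 1 to 2, 0.61 for 486 genes above by 2 to 3, 1.02 for 131 genes above by 3 to 4, and 1.42 for 29 genes above by more than 4. The share called higher with the hairpin went from 4.65% to 21.4%, 51.1% and 72.4% over the last 4 of these bins. On the low side the medians were -0.11 for 2085 genes, -0.26 for 705 genes and -0.46 for 87 genes as the deficit in MZdicer deepened. The 27 genes below wild type by 3 or more did not continue this order, at -0.19. Within the MZdicer-high class the median was 0.22 for 264 genes at up to 2 CPM, 0.28 for 482 at 2 to 5 CPM and 0.37 for 741 at 5 to 20 CPM. It was 0.46 for 608 genes at 20 to 100 CPM and 0.40 for 206 above 100 CPM. Levels were taken as the mean of the 3 libraries outside the comparison. The 0.5 CPM added before taking logs draws ratios at the lowest levels toward 1.

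**Figure D3:**
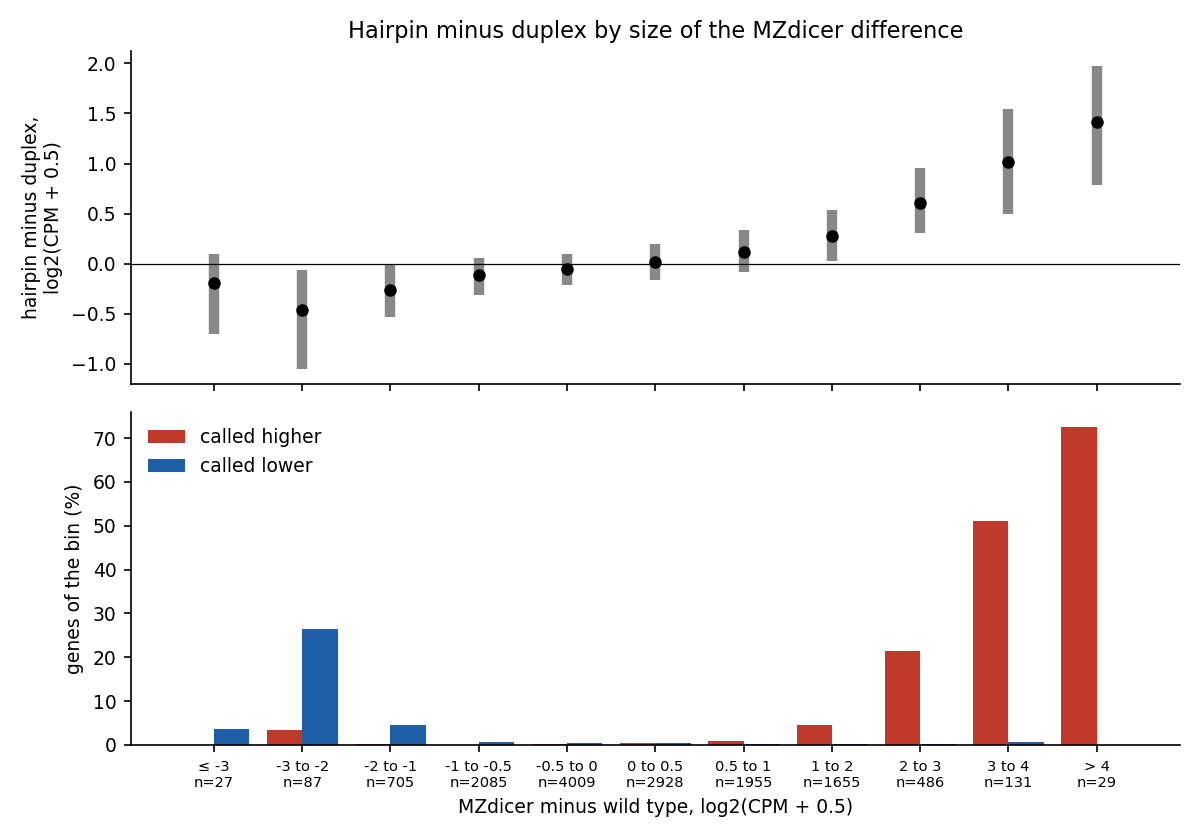
Genes are binned by the log2 ratio of MZdicer to wild type (x axis, difference of log2(CPM + 0.5), with the number of genes). The upper panel gives the median (point) and quartiles (bar) of the log2 ratio of hairpin to duplex, and the lower panel the percentage called higher or lower with the hairpin. The median runs from -0.46 in the bin of -3 to -2 up to 1.42 in the last bin, and departs from that order in the first bin.

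Set against wild type, both compared libraries lay between MZdicer and wild type in their class medians, with the duplex library closer to wild type. Each class was chosen on these same MZdicer and wild-type libraries, so a position between them can follow from that choice alone. The median log2 level of the MZdicer-high genes over wild type was 1.57 in MZdicer, 1.25 with the hairpin and 0.90 with the duplex. It was 1.40 with the 3xPS hairpin. Of these 2301 genes, 1611 (70.0%) were still called higher than wild type with the hairpin and 994 (43.2%) with the duplex, where 13.1% and 8.5% of all genes were called higher. For the 819 MZdicer-low genes the medians were -1.29 in MZdicer, -1.15 with the hairpin, -0.85 with the duplex and -1.17 with the 3xPS hairpin. Of them 526 (64.2%) were still called lower than wild type with the hairpin and 318 (38.8%) with the duplex, where 5.71% and 3.21% of all genes were called lower. Against uninjected MZdicer, the hairpin library had 280 genes lower (1.99%) and 69 higher (0.489%), and the duplex library 846 lower (6.0%) and 212 higher (1.5%). These comparisons share their uninjected libraries, and the labels give no background strain for the MZdicer fish to set beside that of the wild type.

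Known miR-430 targets were among the transcripts that differed. Of 12 measured identifiers that match targets named in the literature, 6 were called higher with the hairpin and 0 lower, beside 2.24% and 0.802% of all genes. Their median log2 ratio was 0.80, beside 0.01 for all genes, and 7 of the 12 are MZdicer-high. The list holds both measured copies of CD82, because the symbol table does not tell the target from its paralog.

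ndr1 (ENSDARG00000057096), the Nodal ligand squint, was at 2.40 CPM in wild type and 32.8 in uninjected MZdicer, and at 5.29 after the duplex, 20.7 after the hairpin and 18.1 after its 3xPS form. It was 3.92-fold higher with the hairpin than with the duplex [3.24, 4.78]. lft2 (ENSDARG00000044059), a secreted Nodal antagonist, was at 14.5, 82.8, 16.8, 42.3 and 37.5 CPM in the same order of libraries, and 2.52-fold higher with the hairpin [2.25, 2.82]. The duplex library was near wild type for lft2 and above it for ndr1, and for both genes the 2 hairpin libraries were higher still.

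CCNA1 (ENSDARG00000043236), a cyclin of germ cells and the early embryo, was at 51.6 CPM in wild type and 1027 in uninjected MZdicer, and at 198 after the duplex, 626 after the hairpin and 746 after its 3xPS form. The hairpin value was 3.17 times the duplex value [3.07, 3.27], and here the duplex library too remained well above wild type. CD82 (ENSDARG00000026070), a tetraspanin membrane protein, was at 8.73 CPM in wild type and 269.9 in uninjected MZdicer, and at 18.9 after the duplex and 85.2 after the hairpin, a 4.50-fold difference between the injected forms [4.07, 4.98]. The other CD82 copy (ENSDARG00000019098) went the opposite way, at 112 CPM with the duplex and 89.9 CPM with the hairpin, and was close to equal in MZdicer and wild type.

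CXCL12 (ENSDARG00000037116), the chemokine that guides migrating germ cells, was at 21.0 CPM with the duplex and 43.2 CPM with the hairpin, a ratio of 2.06 [1.85, 2.29] that falls just under the 2-fold limit with upper-quartile scaling. The germ granule gene tdrd7a (ENSDARG00000032808) was high in MZdicer but not called here, at 30.6 CPM with the duplex and 42.4 CPM with the hairpin (ratio 1.38 [1.26, 1.52]). NANOS3, a germ cell translational regulator, was at 13.8 and 20.7 CPM, lft1 at 43.1 and 51.5 CPM and the chemokine receptor ACKR3 at 32.8 and 38.0 CPM, and none of these was called. MSN, which links actin to the membrane, was at 400.1 and 374 CPM.

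Some maternal transcripts and germ plasm components were also higher with the hairpin. Of 37 measured maternal and oocyte genes 4 were called higher with the hairpin and 0 lower (median log2 ratio 0.28). This was 10.8% higher, against 2.24% of all genes, which were lower in 0.802%. The list holds 12 MZdicer-high genes. Of 19 germ plasm and germ cell genes 3 (15.8%, against the same 2.24%) were higher and 0 lower, with a median of 0.41, and 8 are MZdicer-high. All 6 of the different genes called in these lists are MZdicer-high.

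buc (ENSDARG00000096095), the organizer of the Balbiani body and germ plasm, was at 7.36 CPM in wild type and 169 in uninjected MZdicer, and at 6.00 after the duplex, 25.0 after the hairpin and 27.0 after its 3xPS form. Its ratio of hairpin to duplex was 4.17 [3.49, 5.02], although the hairpin library was itself far below MZdicer. TDRD1 (ENSDARG00000007465) and TDRD6 (ENSDARG00000070052), Tudor proteins of germ granules, were 4.63-fold [4.08, 5.27] and 3.01-fold [2.73, 3.32] higher with the hairpin. DDX4, by contrast, had a log2 ratio of -0.06, and the Piwi genes PIWIL1 and PIWIL2 had 0.05 and -0.16.

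EOMES (ENSDARG00000006640), a maternal T-box factor, was at 11.8 CPM in wild type and 169.6 in uninjected MZdicer, and at 23.1 after the duplex, 113 after the hairpin and 142 after its 3xPS form, so it was 4.91-fold higher with the hairpin than with the duplex [4.49, 5.37]. btg3 (ENSDARG00000069065), an antiproliferative BTG family gene, was at 59.3 CPM with the duplex and 156 CPM with the hairpin (2.64-fold [2.49, 2.80]). slbp2, the oocyte histone mRNA binding protein, had 62 and 145 counts and was 2.40-fold higher [1.77, 3.29], short of the threshold with a pseudocount of 1. The oocyte growth factor GDF9 and the zinc-finger decay factor cth1 lay in the same direction without being called, with ratios of 1.77 [1.45, 2.17] and 1.74 [1.66, 1.83].

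Parts of the mRNA deadenylation and decapping machinery were also higher with the hairpin. Of 49 measured genes 4 were higher and 0 lower (median log2 ratio 0.12), and the list counts btg3 among them. The share higher was 8.16%, against 2.24% of all genes and 11.7% of MZdicer-high genes, which make up 18 of the 49. LSM14B (ENSDARG00000025386), an RNA-binding protein of translationally silent maternal mRNA, was at 8.68 CPM with the duplex and 33.4 CPM with the hairpin, 3.85-fold higher [3.31, 4.48]. LSM4, a subunit of the decapping-activating Lsm ring, was 2.87-fold higher [2.62, 3.13], and the deadenylase PAN2 2.05-fold higher [1.91, 2.21]. PAN2 is no longer called with upper-quartile scaling. The CCR4-NOT scaffold CNOT1 had a log2 ratio of -0.13 and the exonuclease XRN1 of -0.16.

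Nodal signalling specifies mesoderm and endoderm at the embryo margin, through receptors, the co-receptor tdgf1 and Smad2 and Smad3. Of 21 measured genes of the pathway and its targets 5 were higher with the hairpin and 0 lower (median log2 ratio 0.25), and 5 of the 21 are MZdicer-high. The share higher was 23.8%, against 2.24% of all genes. Beside ndr1 and lft2, the effector SMAD2 (ENSDARG00000006389) was at 28.0 CPM with the duplex and 89.2 CPM with the hairpin, 3.18-fold higher [2.92, 3.47]. Of the 2 SMAD3 copies, ENSDARG00000010207 was higher on 18 and 51 counts (2.91-fold [1.67, 5.30], not called with a pseudocount of 1) and ENSDARG00000036096 had a ratio near 1. The Nodal target mixl1 was at 25.5 CPM with the duplex and 52.3 CPM with the hairpin (2.05-fold [1.87, 2.26]), a call that ends with upper-quartile scaling and with the second count column. The receptors ACVR2A and ACVR2B had log2 ratios of -0.03 and -0.51.

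Of 16 measured dorsal organizer genes 2 (12.5%, against 2.24% of all genes) were higher and 1 (6.25%, against 0.802%) lower, with a median of 0.20. The 2 higher members are sebox and ndr1, and ndr1 is also counted in the Nodal list. The homeobox gene sebox (ENSDARG00000042526) was at 57.7 CPM in wild type and 79.8 in uninjected MZdicer, and at 37.8 after the duplex, 93.7 after the hairpin and 85.9 after its 3xPS form. Its 2.48-fold difference [2.30, 2.68] therefore had the duplex library below and the hairpin libraries above both uninjected ones. The BMP antagonist chrd was almost equal, at 308 and 301 CPM. OTX2 (ENSDARG00000011235), an anterior neural and organizer factor, was at 6.96 CPM in wild type and 0.736 in uninjected MZdicer, and at 6.20 after the duplex and 2.07 after the hairpin, 2.99-fold lower with the hairpin [2.17, 4.19].

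Among transcription factors of later patterning, the called genes were all lower with the hairpin. Of 22 measured genes of segmentation and of anterior and placodal patterning, 3 (13.6%, against 0.802% of all genes) were called lower and 0 higher, and 19 had ratios below 1, with a median log2 ratio of -0.35. Of the 22, 13 are MZdicer-low. The count called lower was 1 at a mean CPM of at least 5, and 5 with upper-quartile factors or a pseudocount of 0.1. cdx4 (ENSDARG00000036292), a regulator of the posterior body, was at 195 CPM in wild type and 39.5 in uninjected MZdicer, and at 92.7 after the duplex, 43.8 after the hairpin and 33.3 after its 3xPS form, 2.12-fold lower with the hairpin than with the duplex [1.97, 2.28]. Of the 3 injected libraries only the duplex library stood well above MZdicer for this gene. DLX3, a marker of the neural plate border and placodes, was 2.44-fold lower [1.75, 3.45] and is not called with a pseudocount of 1, and OTX2 is the third called member. TBX3 and six4a were just short of the threshold, with log2 ratios of -0.98 each. A difference of developmental progress between the pools cannot be told apart from a difference in the injected form.

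**Figure D4:**
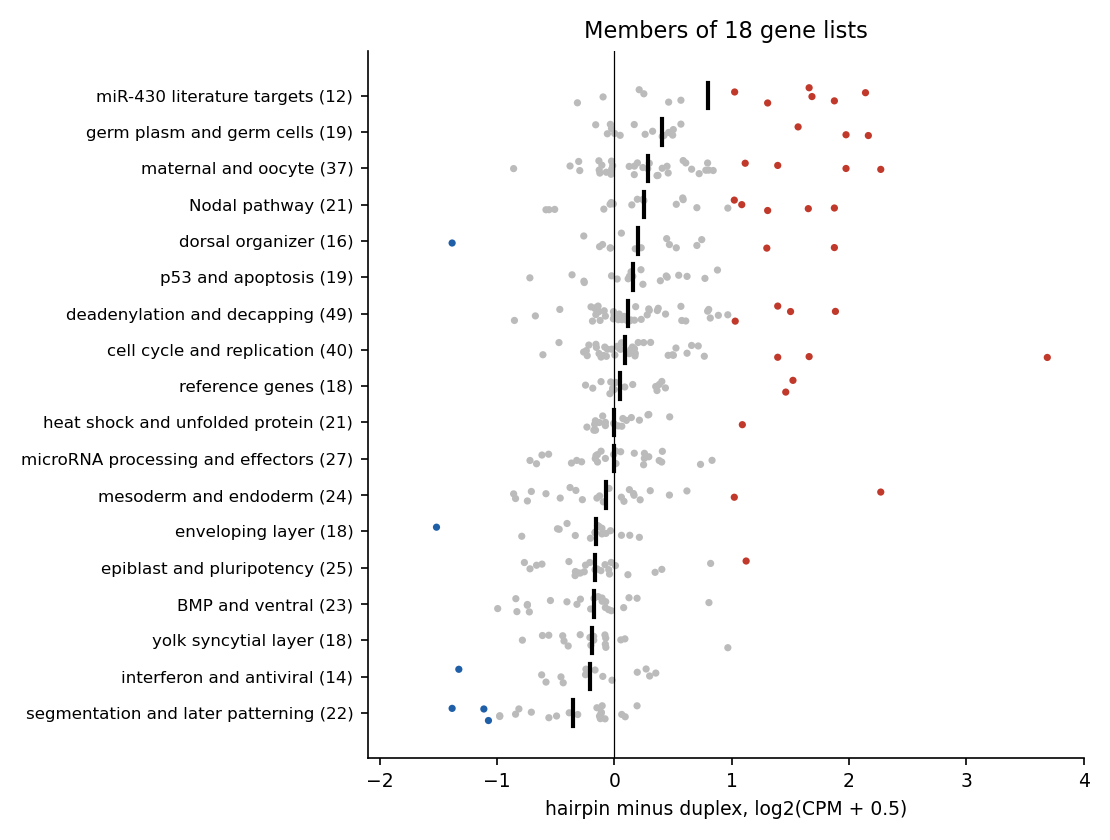
Each point is the log2 ratio of hairpin to duplex (x axis, difference of log2(CPM + 0.5)) of 1 measured identifier in 1 of 18 gene lists (rows, with the number measured), red where called higher, blue where called lower, grey otherwise, and the bar is the list median. Medians run from -0.35 for segmentation and later patterning to 0.80 for the literature targets of miR-430.

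In the lists of other embryonic territories most members lay below a ratio of 1. Ratios above 1 were found for 4 of 23 BMP and ventral genes, 6 of 25 epiblast genes, 3 of 18 enveloping layer genes and 3 of 18 yolk syncytial layer genes, against 51.3% of all genes. In the same order 7, 6, 5 and 1 of the members are MZdicer-low, a class with 23.6% above a ratio of 1. Among all genes above 100 CPM in the mean of the 3 libraries outside the comparison, 39.7% were above 1. Of 24 mesoderm and endoderm genes 2 (8.33%, EOMES and mixl1) were higher and 0 lower, against 2.24% and 0.802% of all genes. The median log2 ratio of this list was -0.07. The presomitic regulator mespaa and the ventral mesoderm signal WNT8A (ENSDARG00000052910) had -0.84 and -0.86. None of 23 BMP and ventral genes was called, where 2.24% of all genes were called higher and 0.802% lower. The BMP and ventral list had a median of -0.17. Its most distant members were the BMP effector smad9 at -0.99, the BMP effector SMAD1 at -0.84 and the ventral homeobox gene msx1b at -0.83. smad9 counts as called with DESeq2 size factors, upper-quartile factors, a pseudocount of 0.1 or a 1.5-fold threshold.

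Of 25 epiblast and pluripotency genes only nanog was called, as higher. That is 4.0% of the list, against 2.24% of all genes. nanog (ENSDARG00000075113), an activator of the zygotic genome, was at 83.6 CPM in wild type and 512 in uninjected MZdicer, and at 175 after the duplex, 382 after the hairpin and 368 after its 3xPS form, 2.18-fold higher with the hairpin [2.11, 2.26]. sox19b, a maternal SoxB factor, had a ratio of 1.77 [1.68, 1.86], while the list median was -0.16. Of 18 enveloping layer genes only agr1, an anterior gradient protein, was called, as lower (5.56%, against 0.802% of all genes). It was at 17.1 CPM with the duplex and 5.64 CPM with the hairpin (3.02-fold lower [2.49, 3.69]). None of 18 yolk syncytial layer genes was called, where 2.24% of all genes were called higher and 0.802% lower. Its member mxtx2, the factor that drives this layer, was at 9.95 and 19.9 CPM, a log2 ratio of 0.97. The list as a whole lay on the other side, with 3 of 18 above a ratio of 1 and a median of -0.19, and the lipid transfer gene MTTP, the fibronectin gene FN1 and afp4 were at -0.78, -0.61 and -0.56.

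The microRNA machinery gave no call among 27 measured genes, where 2.24% of all genes were called higher and 0.802% lower. Of the 27, 9 are MZdicer-high, and the median log2 ratio was -0.01. AGO2 (ENSDARG00000061268), the slicer that must cut the hairpin, was at 249 CPM in wild type and 642 in uninjected MZdicer, and at 444 after the duplex, 590.3 after the hairpin and 675 after its 3xPS form. Its ratio of hairpin to duplex was 1.33 [1.30, 1.36]. AGO1 was at 3.95 and 6.90 CPM and ago3a at 8.05 and 14.7 CPM, with ratios of 1.75 [1.36, 2.26] and 1.83 [1.54, 2.18]. The 2 LIN28A copies and LIN28B, RNA-binding proteins that block let-7 maturation, were on the other side, at log2 ratios of -0.62, -0.66 and -0.72. In each of these 3 the hairpin library was the lowest of the 5. parn is not analysed here.

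Stress and housekeeping lists gave 7 calls, 6 of them higher, and medians from -0.20 for the interferon list to 0.16 for the p53 list. None of 19 p53 and apoptosis genes was called, where 2.24% of all genes were called higher and 0.802% lower. The p53 list had a median of 0.16. Among 14 interferon and antiviral genes ifit8 alone was called (7.14%, against 0.802% of all genes), lower on 68 counts with the duplex and 19 with the hairpin. Among 21 heat shock genes only a weakly expressed HSPA8 copy (ENSDARG00000037403) was higher (4.76%, against 2.24% of all genes). It had 15 and 45 counts, and a pseudocount of 1 ends the call. Of 40 cell cycle genes 3 (7.5%) were higher and 0 lower, against 2.24% and 0.802% of all genes, namely CCNA1, a CCND2 copy with 9 and 43 counts, and RRM2, which is described below. Of 18 reference genes 2 (11.1%) were higher: the general transcription factor TBP and ubiquitin ubb, by 2.77-fold [2.58, 2.98] and 2.89-fold [2.70, 3.10], whereas actb1 had a log2 ratio of -0.01. TBP and ubb are both MZdicer-high, as are 3 of the 18 in all. Of genes for tissues that form only later, 2 were measured and 0 called, too few to set beside the shares of all genes.

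Of the 10 uniquely named higher genes whose interval lay farthest from equality, only EOMES is in a list. zcchc2 (ENSDARG00000067950), a zinc-finger gene, was at 5.39 CPM in wild type and 70.9 in uninjected MZdicer, and at 8.45 after the duplex, 59.8 after the hairpin and 77.7 after its 3xPS form, 7.08-fold higher with the hairpin than with the duplex [6.13, 8.21]. Its hairpin level was close to that of uninjected MZdicer, and its duplex level close to wild type. The others among the first 10 were dnajc5ga, a J-domain gene (6.51-fold [6.03, 7.04]), the phosphatase 2A activator PTPA (6.59-fold [5.80, 7.53]), the lipid transfer protein BLTP2 (5.95-fold [5.39, 6.59]), the mitochondrial fission GTPase DNM1L (7.66 and 41.1 CPM, 5.37-fold), the lysosomal membrane protein LAPTM4A (5.09-fold [4.58, 5.67]), EOMES, the receptor kinase GRK6 (5.26-fold [4.35, 6.41]), the ferritin gene fthl28 and WDR90 (5.03-fold [4.17, 6.11]). All but fthl28 are MZdicer-high.

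The first 10 lower genes were of another kind, with 6 MZdicer-low and 4 in neither class. igf2bp1 (ENSDARG00000061478), an RNA-binding protein and the most abundant of them by CPM, was at 233 CPM in wild type and 135 in uninjected MZdicer, and at 209 after the duplex, 87.3 after the hairpin and 168 after its 3xPS form, 2.40-fold lower with the hairpin than with the duplex [2.28, 2.52]. The hairpin library was the lowest of the 5 for this gene, as it was for the collagen-binding integrin gene ITGA10 (3.33-fold lower [2.41, 4.65]) and the neural transcription factor gene ONECUT2 (3.55-fold lower [2.56, 4.99]). The mitochondrial carrier slc25a22a was 3.48-fold lower [2.70, 4.51], the sulfotransferase CHST11 4.86-fold lower [2.91, 8.57], the ubiquitin-like activating enzyme gene uba7 3.27-fold lower and noxo1a 2.63-fold lower [2.20, 3.16]. myripb rests on 2 counts with the hairpin and 35 with the duplex (17.0-fold [4.37, 146]). DPY19L1 rests on 6 and 34 counts, and its log2 ratio moved from -1.31 to -0.40 with the second count column.

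**Figure D5:**
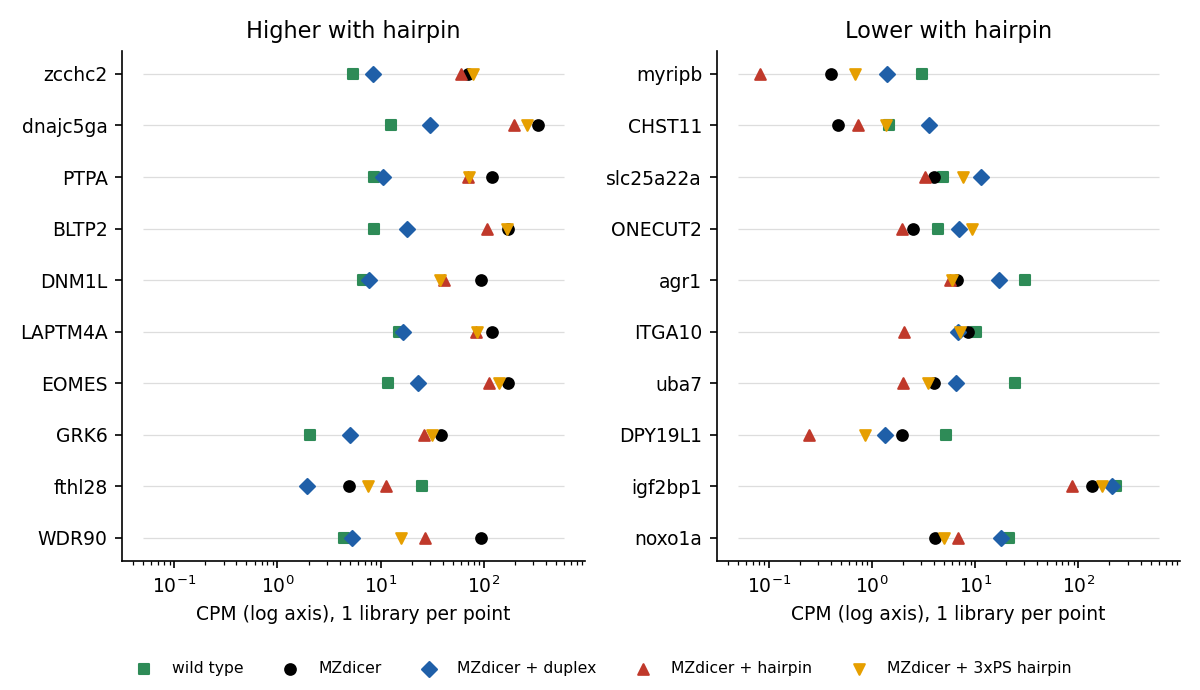
CPM on a log axis in each of the 5 libraries (1 library per point) for the 10 uniquely named genes higher with the hairpin (left) and the 10 lower (right) whose counting interval lies farthest from equality. On the left the duplex point lies nearer to wild type than the hairpin point does for all but fthl28, and on the right the hairpin point is the lowest of the 5 for 8 genes. The genes were picked by the same hairpin and duplex counts, so these positions are a description only.

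Across the calls the hairpin library stood apart from MZdicer in different ways on the 2 sides. Of the 316 higher genes, 257 (81.3%) had a hairpin level between those of the duplex and MZdicer libraries. Of the 113 lower genes only 32 (28.3%) did, and 63 (55.8%) had their lowest level of the 5 libraries with the hairpin, which over all genes measured was so for 15.0%. These positions, and those of the named genes above, use the same hairpin values that made the calls and are given as a description.

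A small group ran against its MZdicer class, and its members are named here after their values were seen. The 5 MZdicer-low genes that were higher with the hairpin are histh1l1, fthl28, fthl30, zgc:195170 and RRM2. histh1l1, a linker histone gene, was at 141 CPM in wild type and 34.1 in uninjected MZdicer, and at 20.7 after the duplex and 59.9 after the hairpin. fthl30, a ferritin heavy chain gene, was at 6.37, 1.204, 0.671 and 3.61 CPM in the same order, while the abundant ferritin genes fth1a and fthl27 had log2 ratios of 0.02 and -0.02. RRM2 (ENSDARG00000078069), a ribonucleotide reductase subunit whose symbol a further identifier also carries, was at 0.316 CPM with the duplex and 10.02 CPM with the hairpin (31.7-fold [15.9, 74.4]). Its ratio is uncertain: the second count column, 2405 times the first with the duplex and 72.5 times with the hairpin, gives a log2 ratio of -0.06. Among the 7 MZdicer-high genes lower with the hairpin, lamb2l had 63 counts with the duplex and 20 with the hairpin, and nectin4a, a cell adhesion gene, 116 and 48.

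The 3xPS hairpin gave values on the same side of the duplex. It shares the duplex library with the comparison above, so the values are only set side by side. Against the duplex, 472 genes (3.35%) were higher with the 3xPS hairpin and 82 (0.582%) lower, where the unmodified hairpin gave 316 and 113. The MZdicer-high median was 0.49 with the 3xPS hairpin and 0.36 with the unmodified hairpin, and the MZdicer-low medians were -0.29 and -0.27.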

How the data were processed

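Poly(A)+ RNA libraries were strand-specific TruSeq libraries, per the labels' protocols. CASAVA 1.8.2, TopHat2 2.0.8 and the build Zv9 (danRer7) are named in the submitters' processing notes. The sources used here do not name the counting tool, annotation release, use of strand or handling of shared reads. The values used are the authors' deposited whole-number read counts per gene. A second deposited column of estimated counts, rounded, and the authors' deposited RPKM values were alternatives. Counts were scaled with TMM factors over the 5 libraries (0.967 to 1.02; edgeR 4.0.16, R 4.3.3). DESeq2 1.42.0 size factors were another alternative. A ratio on the log2 scale is a difference of log2(CPM + 0.5), and folds are CPM ratios. A count of 3 is 0.118 CPM with the duplex and 0.122 CPM with the hairpin. Intervals and this floor cover counting error only. Reads carry no molecular identifiers, so amplified copies of a molecule are counted as separate reads, and the intervals may be too narrow.

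Symbols were matched for 18804 of 26158 identifiers. The 19 gene lists were matched by symbol, RefSeq synonym or the human-style symbol, so paralogs can enter together. Named genes are the 10 higher and 10 lower uniquely named genes with the interval bound farthest from equality, the 4 measured members per list farthest from a ratio of 1, all literature targets, DICER1 and AGO2. Other genes were named with their values known, and 1 literature target is not reported here. Members and lists were chosen with earlier results of these data known. Near-identical or overlapping genes are uncertain: the second count column exceeded the first by more than 1.5 times in 4.43% of higher and 8.85% of lower genes, and in 4.13% of all.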

Additional observations from a re-analysis of the deposited data

Results flagged for a closer look

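fthl28 (ENSDARG00000076221), a ferritin heavy chain gene, was singled out for calls in opposite directions against the same uninjected MZdicer library. It was called lower with the duplex and higher with the hairpin. Uninjected MZdicer was at 4.88 CPM (73 counts), the duplex library at 1.93 (49 counts) and the hairpin library at 11.3 (278 counts). The log2 ratio of hairpin to duplex was 2.28. Wild type was at 25.0 CPM and the 3xPS hairpin at 7.55 CPM. No other measured gene was called in opposite directions in these 2 comparisons. The difference was not tested, since each group has 1 library. The second count column was 1.16 times the first in both injected libraries.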

How the results depend on the processing

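The counts of called genes and the class medians kept their direction under all 11 alternatives that give them, and the median of all genes stayed between -0.05 and 0.04 on the log2 scale under every scaling run. Higher and lower genes numbered 335 and 95 with total-count scaling, 311 and 117 with DESeq2 size factors, 276 and 142 with upper-quartile factors, 397 and 146 from the authors' RPKM, 313 and 103 with the second count column and 349 and 143 after thinning to the smallest library. The RPKM calls used the 2-fold limit alone, with a pseudocount of 0.1 and no counting interval, so their numbers follow a looser rule. The larger moves followed the threshold and low levels. At 1.5-fold, 1089 genes were higher and 674 lower. Lower genes numbered 198 with a pseudocount of 0.1, 59 with a pseudocount of 1 and 49 at a mean CPM of at least 5. That filter gave an MZdicer-high median of 0.40, and no filter gave 0.33, with an MZdicer-low median of -0.21. RRM2 ENSDARG00000078069 turned from 3.69 to -0.0602 with the second count column. Besides this RRM2 value, 11 of 992 values of 92 named genes under these settings lost their call, and 30 gained one. The 11 were for mixl1, PAN2, CXCL12, DPY19L1, slbp2, SMAD3, DLX3 and HSPA8. The 30 gains include those at the 1.5-fold threshold, where the lower limit by itself adds calls. A named gene outside the filter of a setting gives no value there. The cause was not tested. With 1 library per group, embryo pool, injection and library cannot be told apart from the injected form, and no setting measures the spread between pools. No paired analysis was possible because each group has 1 library and the labels carry no replicate numbers.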
